A study of Rattus norvegicus with 6 samples.

Results

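The 37 genes described here are targets of the nuclear receptor PPARalpha and enzymes and carriers of fatty acid oxidation, measured in rat liver. They were chosen by name, by a rule that uses no measured value though earlier results of these data were known when the list was made, and are 37 of the 27642 genes that entered the fit. All 37 had a probe well above background on all 6 arrays. Male Sprague-Dawley rats, of the outbred Crl:CD(SD) stock and 5 weeks old when purchased, were given either the corn oil vehicle (3 animals) or tris(2-chloroethyl) phosphate (TCEP), a chlorinated phosphate ester used as a flame retardant, at 400 mg/kg per day (3 animals). Total liver RNA from each animal was labelled with Cy3 and hybridised to its own 1-colour Agilent array. The labels give the dosing as 9 weeks in the treatment protocol and the measurement as 28 days in the design text, and which of these holds was not settled. Neither the route of dosing nor the age at sampling is stated in the labels.

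PPARalpha is activated by fatty acids and by fibrate drugs and pairs with the retinoid X receptor on DNA, at direct repeats of a short hexamer. In rodent liver its activators raise the microsomal Cyp4a fatty acid hydroxylases and the peroxisomal beta-oxidation enzymes, and many of its activators enlarge the liver and multiply peroxisomes. Mitochondrial oxidation, in which carnitine carries long-chain fatty acids across the inner membrane to the beta-oxidation spiral, is under the same receptor but usually responds less steeply.

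No member, and no gene of the fit, passed an adjusted p of 0.05 between TCEP and corn oil (0% of all genes, limma with Benjamini-Hochberg adjustment over all 27642 genes). The smallest adjusted p of all genes was 0.291. Of the 37 members, 27 had a higher mean with TCEP and 10 a lower one, against 50.9% of all genes with a higher mean. The median difference over the members was 0.05 on the log2 scale, against 0.00 over all genes. That excess of higher means depended on the scaling, since quantile normalization left 18 members with a higher mean and a median of -0.02. Only the pantetheinase gene Vnn1 and the peroxisomal thiolase gene Acaa1b reached an unadjusted p under 0.05, both higher with TCEP. These are 2 of 37 members, close to the 5.01% of all genes that did so in that direction, and 0 members did so in the lower direction (4.19% of all genes). In 5 members (Acaa1b, Decr2, Acaa2, Acadvl and Vnn1) the lowest TCEP value exceeded the highest corn oil value, which held for 10.3% of all genes, and in no member did the groups lie apart the other way, which held for 7.06%.

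Many members varied widely between animals of 1 group. Their median standard deviation was 0.36 in the corn oil group and 0.23 in the TCEP group, against 0.19 and 0.14 over all genes (log2 scale, 3 animals each). In the corn oil group this median was 0.55 in the Cyp4a, 0.43 in the peroxisomal and 0.56 in the members outside both organelles. The 14 mitochondrial members had one of 0.13 there, below that of all genes. In the TCEP group the median was 0.23 in the Cyp4a, 0.28 in the peroxisomal and 0.28 in the outside members. It was 0.20 in the mitochondrial members, there above the 0.14 of all genes. The standard error of the difference had a median of 0.21 over the members, and 34 of the 37 differences were smaller than 0.5 in size. Values below are log2 signals relative to the 75th percentile of the same array, so that 0 is that percentile, and each is given in the order of corn oil replicates 1, 2 and 3 and then TCEP replicates 1, 2 and 3. A level of 1 gene is not set against that of another, because probes differ in how brightly they hybridise.

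**Figure D1:**
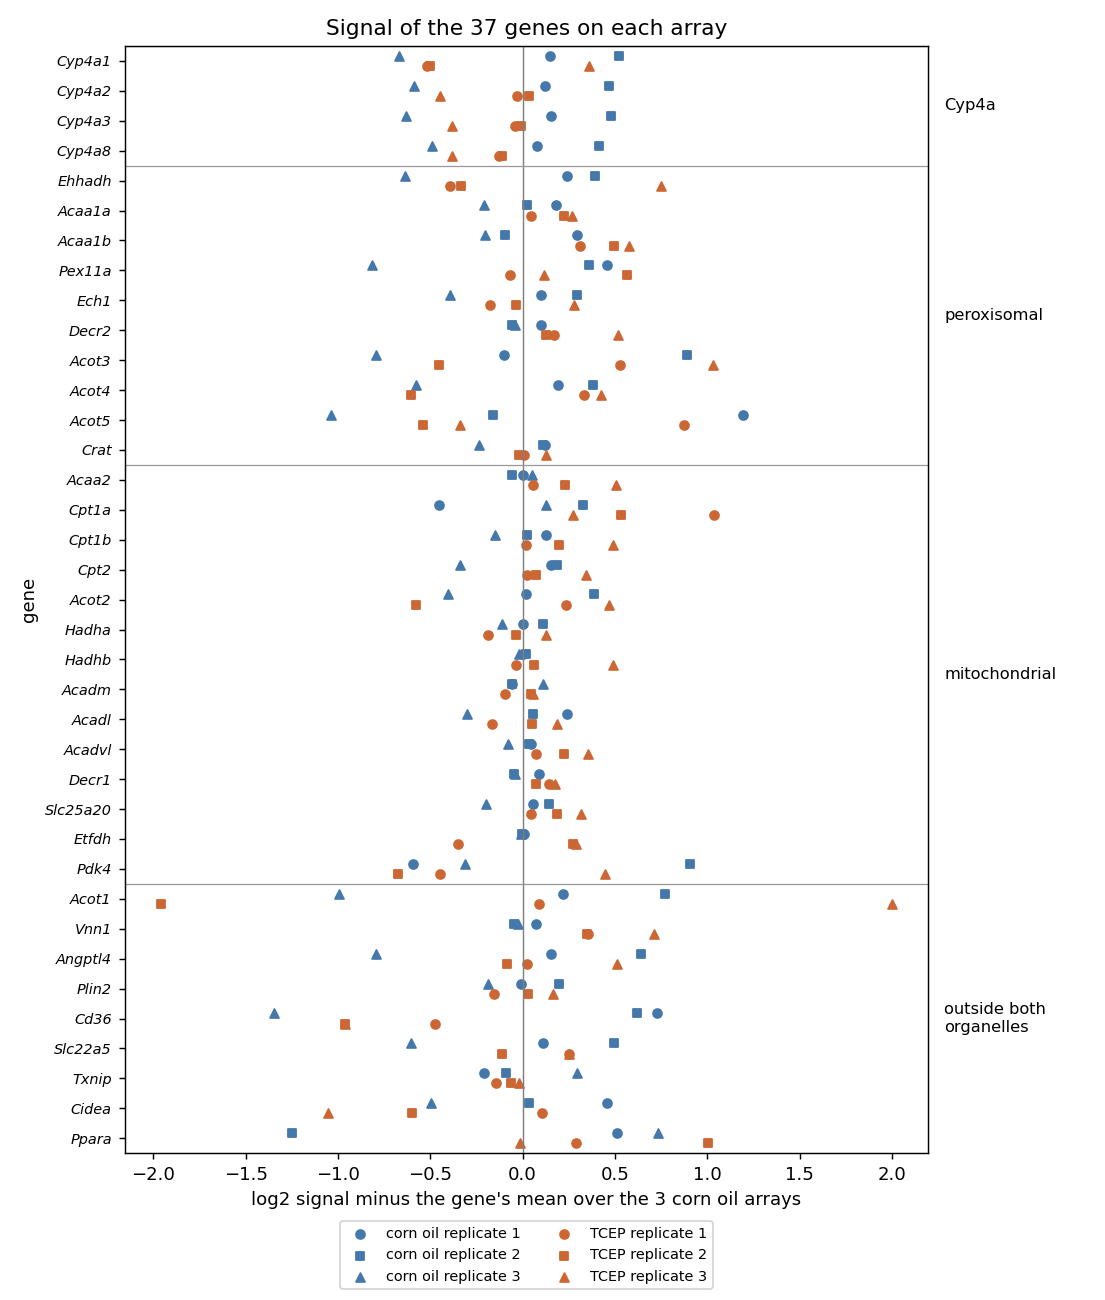
Log2 signal of each of the 37 genes on each of the 6 arrays, as the difference from the gene's mean over the 3 corn oil arrays (horizontal axis), with 1 row per gene (vertical axis) grouped by role. Corn oil values are blue and TCEP values orange, and the marker shape gives the replicate number. The colours lie apart in 5 rows, those of Acaa1b, Decr2, Acaa2, Acadvl and Vnn1, and the widest row is Acot1.

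The arrays share features that bear on every comparison below. Between 57.2% and 64.4% of probes were well above background per array. Corn oil replicates 1 and 3 were on 1 slide, corn oil replicate 2 on a slide of its own that was scanned 23 days after the others, and all 3 TCEP arrays on another slide. That slide held no corn oil array, so slide and treatment cannot be told apart within a slide. With slide as a random block, 3 of the 37 members (Acaa1b, Cpt1a and Vnn1) had an unadjusted p under 0.05 and a higher TCEP mean. Of all genes 6.02% did so, where 5.01% did without the block, and still no gene passed the adjusted threshold. As all TCEP arrays share 1 slide, this block cannot take a slide effect out of the comparison. The standard error of Cpt1a was 0.256 with the block and 0.272 without it. All 6 hepatocyte markers (Alb, Apoa1, Ttr, Serpina1, Tf and Fgb) were measured, and their summed signal, as log2, ranged from 12.50 to 12.61 in the corn oil arrays and from 12.36 to 12.54 in the TCEP arrays. In whole liver, fewer cells of a type and less RNA per cell cannot be told apart.

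The 4 Cyp4a genes encode cytochrome P450 enzymes of the endoplasmic reticulum that hydroxylate fatty acids at their omega end, and they are the classical readout of PPARalpha activation in rat liver. They lie together on chromosome 5 with 1 other protein-coding gene among them, Cyp4a2l1, by RefSeq's gene table for the GRCr8 assembly. The promoters of 3 of them are shown, those with a promoter entry, and Cyp4a1 had none. The sequences are the 250 bases before the annotated gene start, 5′ to 3′ on the gene's strand, from RefSeq's GRCr8 assembly, at chr5:134170909-134171158 for Cyp4a2, chr5:134352237-134352486 for Cyp4a3 and chr5:133970227-133970476 for Cyp4a8, each on the minus strand. Capitals mark the hexamer AGGTCA, the unit of the receptor's direct repeat.
Cyp4a2: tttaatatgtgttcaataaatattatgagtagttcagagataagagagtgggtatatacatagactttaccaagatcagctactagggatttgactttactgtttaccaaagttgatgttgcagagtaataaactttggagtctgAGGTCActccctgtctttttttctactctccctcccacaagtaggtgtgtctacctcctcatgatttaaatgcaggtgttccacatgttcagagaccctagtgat
Cyp4a3: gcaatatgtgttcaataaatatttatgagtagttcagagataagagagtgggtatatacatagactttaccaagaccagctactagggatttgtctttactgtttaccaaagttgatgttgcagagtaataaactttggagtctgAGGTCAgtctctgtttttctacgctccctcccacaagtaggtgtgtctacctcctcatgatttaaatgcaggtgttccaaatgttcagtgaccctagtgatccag
Cyp4a8: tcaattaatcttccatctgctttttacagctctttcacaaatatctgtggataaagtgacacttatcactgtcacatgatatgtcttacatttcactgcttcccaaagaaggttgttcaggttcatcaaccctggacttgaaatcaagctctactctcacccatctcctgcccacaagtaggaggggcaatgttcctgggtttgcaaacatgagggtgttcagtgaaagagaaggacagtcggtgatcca

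The Cyp4a2 and Cyp4a3 windows were identical at 236 of 250 aligned columns (94.4%), and each held AGGTCA on the gene's own strand, starting at position -105 relative to the gene start. The Cyp4a8 window had no AGGTCA on either strand and was 55.7% identical to that of Cyp4a2 and 56.6% identical to that of Cyp4a3. Promoter entries were matched for 29 of the 37 members, in 30 windows since Plin2 has 2. There was none for Cyp4a1, Acaa2, Cpt1b, Vnn1, Acadl, Ech1, Decr1 or Txnip in the table used here. Searched on both strands over 33469 windows of the same length, the full repeat AGGTCANAGGTCA was in 0.0508% and the looser AGGNCANAGGNCA, which includes it, in 0.368%. Neither was in a member's window. AGGTCA alone, which the full repeat also contains, was in 14.1% of all windows and in those of 5 members, Cyp4a2, Cyp4a3, Acot4, Acot5 and Acadvl. A match or its absence in these windows is a description of the letters and says nothing of binding.

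Cyp4a1 had log2 signals of 6.92, 7.30 and 6.10 in the corn oil animals and 6.26, 6.27 and 7.13 in the TCEP animals. Corn oil replicate 2 was the highest and corn oil replicate 3 the lowest, with TCEP replicate 3 above corn oil replicate 1, so the groups overlapped. The TCEP mean was lower by 0.22 with a standard error of 0.37, and the 95% confidence interval ran from -1.13 to 0.69 (adjusted p = 0.879, limma). Cyp4a2 had 9.46, 9.80 and 8.74 with corn oil and 9.30, 9.37 and 8.89 with TCEP, a difference of -0.15 ± 0.29 (standard error). Cyp4a3 had 8.54, 8.86 and 7.75 and then 8.34, 8.38 and 8.00, a difference of -0.14 ± 0.29. Cyp4a8 had 8.20, 8.54 and 7.63 and then 8.00, 8.01 and 7.74, a difference of -0.21 ± 0.24. In these 3 genes the 6 arrays took 1 and the same order, corn oil 2, corn oil 1, TCEP 2, TCEP 1, TCEP 3 and corn oil 3 from high to low, so the TCEP values all fell inside the corn oil range. Transcripts of Cyp4a2 and Cyp4a3 are close in sequence, and a probe for either may also take signal from the other.

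The 4 Cyp4a means were all lower with TCEP, with a median difference of -0.18. This sign rested on corn oil replicate 2. Without that array, which leaves only arrays of the first scan day, 3 of the 4 Cyp4a means were higher with TCEP and the median was 0.06. Without corn oil replicate 3 the median was -0.46, and Cyp4a3 and Cyp4a8 then had an unadjusted p under 0.05. Their adjusted p-values were 0.42 and 0.39 (limma), and 1593 of all 27642 genes were lower at that unadjusted p in the same setting. The second probes of Cyp4a1 and Cyp4a2 also had lower TCEP means (-0.10 ± 0.35 and -0.22 ± 0.21), as did both further probes of Cyp4a8 (-0.18 ± 0.12 and -0.74 ± 0.43). At the probes with the highest mean, no Cyp4a difference was larger than the gene's standard deviation in the corn oil group, which had a median of 0.55. The Cyp4a8 difference of -0.21 was larger in size than its standard deviation in the TCEP group, 0.15. In the fit of all 6 arrays, the upper end of the interval was 1.61-fold the corn oil mean for Cyp4a1 and 1.47-fold for Cyp4a2. These bounds hold for that fit only. Without corn oil replicate 2 the differences were 0.041 ± 0.37 for Cyp4a1 and 0.085 ± 0.26 for Cyp4a2.

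Of the 10 peroxisomal members 9 had a higher mean with TCEP, with a median of 0.12, and 5 of 10 did under quantile normalization. Acaa1b, 1 of a pair of peroxisomal 3-ketoacyl-CoA thiolases that carry out the last step of the spiral, had log2 signals of 8.21, 7.82 and 7.71 with corn oil and 8.23, 8.41 and 8.49 with TCEP. Every TCEP value lay above every corn oil value, though TCEP replicate 1 and corn oil replicate 1 were nearly level. The TCEP mean was 0.46 ± 0.16 higher (standard error), or 1.38-fold, with an interval from 0.08 to 0.84, an unadjusted p of 0.0262 and an adjusted p of 0.521 (limma). Its other probes gave 0.84 ± 0.23 and 0.73 ± 0.17, the last without TCEP replicate 1, whose spot was an outlier and left out. Within the first scan day Acaa1b was 0.41 higher, with an unadjusted p of 0.0735, and leaving out any 1 array gave 0.36 to 0.61.

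Acaa1a, the paired thiolase gene, had 8.53, 8.38 and 8.14 and then 8.40, 8.58 and 8.62, and its groups overlapped. The difference was 0.18 ± 0.13 at the probe with the highest mean and 0.43 ± 0.16 and 0.46 ± 0.17 at its other probes. Both genes lie on chromosome 8, with 6 other protein-coding genes between them, and their transcripts are alike enough that their probes may share signal. Their values are therefore uncertain as measures of 1 gene each.

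Ehhadh encodes the peroxisomal bifunctional enzyme, the hydratase and dehydrogenase before the thiolase step. Its signals were 4.96, 5.12 and 4.09 with corn oil and 4.33, 4.39 and 5.48 with TCEP. TCEP replicate 3 was the highest of the 6 arrays and corn oil replicate 3 the lowest, while the group means were nearly equal, differing by 0.01 ± 0.40 (interval -0.97 to 0.98). Pex11a, a membrane protein that promotes peroxisome division, had 5.77, 5.67 and 4.50 and then 5.24, 5.88 and 5.43, a difference of 0.21 ± 0.37. All its values but that of corn oil replicate 3 lay within a range from 5.24 to 5.88.

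Decr2, the peroxisomal 2,4-dienoyl-CoA reductase needed for polyunsaturated fatty acids, had 2.97, 2.81 and 2.82 with corn oil and 3.04, 2.99 and 3.38 with TCEP. Its groups did not overlap, TCEP replicates 1 and 2 lay close above corn oil replicate 1, and the difference was 0.27 ± 0.13 with an unadjusted p of 0.0851. Ech1, a dienoyl-CoA isomerase of peroxisomes and mitochondria, differed by 0.02 ± 0.21, with signals from 6.03 to 6.72 in corn oil and from 6.25 to 6.71 in TCEP animals. Crat, the carnitine acetyltransferase of both organelles, differed by 0.04 ± 0.13, and the interval ran from -0.27 to 0.35.

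The acyl-CoA thioesterases Acot3, Acot4 and Acot5 split fatty acyl-CoA in the peroxisome, and with Acot1 and Acot2 they form a cluster on chromosome 6 with 1 other protein-coding gene among them. Acot3 had 1.34, 2.33 and 0.64 with corn oil and 1.96, 0.98 and 2.47 with TCEP, a difference of 0.37 ± 0.53. Acot4 had 5.68, 5.86 and 4.91 and then 5.81, 4.88 and 5.91, a difference of 0.05 ± 0.36. Acot3 and Acot4 were high in TCEP replicates 1 and 3 and low in TCEP replicate 2, and in both groups the animals spanned about the same range. Acot5 had 5.05, 3.70 and 2.82 and then 4.73, 3.32 and 3.52, with corn oil replicate 1 and TCEP replicate 1 well above the other animals, and its means differed by 0.00 ± 0.63. Its further probes gave 0.05 and 0.11, the opposite sign. Members of this cluster are paralogs of near-identical sequence in part, so their probes may share signal.

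**Figure D2:**
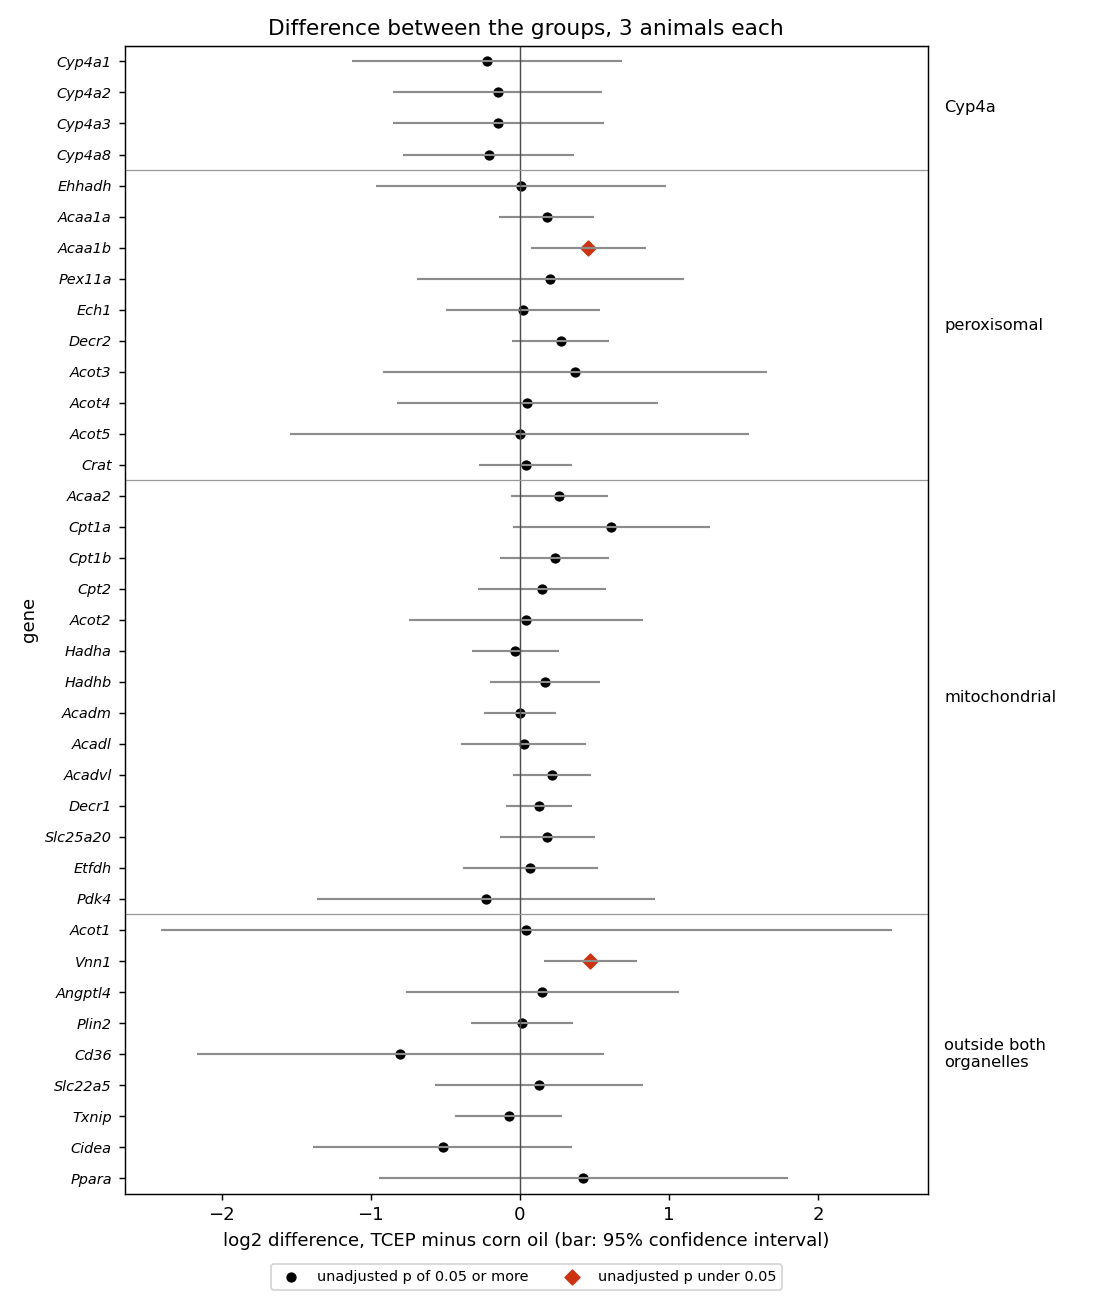
Difference in mean log2 signal between TCEP and corn oil for each of the 37 genes (horizontal axis, TCEP minus corn oil), with 1 row per gene grouped by role and the 95% confidence interval as a bar (limma, 3 animals per group). Diamonds mark Acaa1b at 0.46 and Vnn1 at 0.47, the members with an unadjusted p under 0.05, and the interval of Acot1 is the widest, from -2.41 to 2.49.

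Of the 14 mitochondrial members 12 had a higher mean with TCEP, with a median of 0.14 (8 of 14 and 0.07 under quantile normalization). None had an unadjusted p under 0.05. Cpt1a, the liver form of carnitine palmitoyltransferase 1 and the entry step of long-chain fatty acids into mitochondria, had signals of 3.71, 4.50 and 4.30 with corn oil and 5.21, 4.70 and 4.44 with TCEP. TCEP replicates 1 and 2 lay above all corn oil animals and TCEP replicate 3 below corn oil replicate 2. The TCEP mean was 0.61 ± 0.27 higher, or 1.53-fold, with an interval from -0.05 to 1.28, an unadjusted p of 0.0633 and an adjusted p of 0.555 (limma). Within the first scan day the difference was 0.78 with an unadjusted p of 0.0399. Leaving out corn oil replicate 1 or TCEP replicate 1 brought it to 0.39 and 0.40.

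Cpt1b, the muscle form of the same enzyme, was kept through 1 of its 3 probes and had signals from 0.71 to 0.99 with corn oil and from 0.88 to 1.35 with TCEP. Its difference was 0.23 ± 0.15. Of 7 striated muscle markers 3 were measured, and their summed log2 signal ranged from 0.36 to 0.63 in corn oil and from 0.12 to 0.60 in TCEP animals, while Myh1, Myh4, Tnnt3 and Myl1 were not measured. Cpt2, the inner membrane partner that reforms the acyl-CoA, differed by 0.15 ± 0.18, and Slc25a20, the carnitine-acylcarnitine carrier between the 2 transferases, by 0.18 ± 0.13. The interval of Slc25a20 ran from -0.13 to 0.50.

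The acyl-CoA dehydrogenases take the first step of the spiral, each for its own chain length. Acadvl, for very long chains, had 4.92, 4.91 and 4.80 with corn oil and 4.95, 5.10 and 5.23 with TCEP. Its groups did not overlap, TCEP replicate 1 exceeded corn oil replicate 1 by little, and the difference was 0.22 ± 0.11 with an unadjusted p of 0.0889. Acadl, for long chains, had signals from 7.18 to 7.73 with corn oil and from 7.32 to 7.68 with TCEP, and its means differed by 0.02 ± 0.17. Acadm, for medium chains, had 7.17, 7.17 and 7.34 and then 7.13, 7.27 and 7.28. Its groups overlapped closely, with an interval from -0.24 to 0.25 around a difference of 0.00.

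Hadha and Hadhb encode the alpha and beta subunits of the trifunctional protein, which carries out the later steps for long chains. Hadha had 3.97, 4.08 and 3.86 with corn oil and 3.78, 3.93 and 4.09 with TCEP, a difference of -0.03 ± 0.12. Hadhb had 3.56, 3.58 and 3.54 and then 3.53, 3.63 and 4.05, a difference of 0.17 ± 0.15. In both subunits TCEP replicate 3 was the highest array and TCEP replicate 1 the lowest. Acaa2, the mitochondrial thiolase, had 7.10, 7.05 and 7.15 and then 7.16, 7.33 and 7.61. Its groups did not overlap, with TCEP replicate 1 and corn oil replicate 3 nearly level, and the difference was 0.27 ± 0.13 with an unadjusted p of 0.0953.

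Decr1, the mitochondrial 2,4-dienoyl-CoA reductase, differed by 0.13 ± 0.09, with TCEP signals of 7.65, 7.59 and 7.69 against 7.60, 7.46 and 7.47. Etfdh, which passes electrons from the dehydrogenases to ubiquinone, had 4.83, 4.81 and 4.81 with corn oil and 4.46, 5.09 and 5.11 with TCEP. The TCEP animals lay on both sides of the close corn oil values, and the difference was 0.07 ± 0.19. Acot2, the mitochondrial thioesterase of the cluster on chromosome 6, had 5.05, 5.42 and 4.62 and then 5.26, 4.45 and 5.50, a difference of 0.04 ± 0.32. Pdk4, a kinase that holds back pyruvate oxidation when fat is burned, had -0.93, 0.57 and -0.65 and then -0.79, -1.01 and 0.11. Corn oil replicate 2 and TCEP replicate 3 were its high animals, and the difference of -0.22 ± 0.47 became 0.23 without corn oil replicate 2.

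Of the 9 members outside both organelles 6 had a higher mean with TCEP, with a median of 0.04. Vnn1, a pantetheinase of the cell surface that releases cysteamine and is a sensitive PPARalpha target in liver, had signals of 3.72, 3.60 and 3.62 with corn oil and 4.002, 3.995 and 4.358 with TCEP. The corn oil animals lay within a narrow range and all TCEP animals above it, TCEP replicate 3 the highest. The TCEP mean was 0.47 ± 0.13 higher, or 1.39-fold, with an interval from 0.16 to 0.78, an unadjusted p of 0.00987 and an adjusted p of 0.477 (limma). Vnn1 kept an unadjusted p under 0.05 in all 18 alternatives run, including each array left out, where the difference ran from 0.35 to 0.53, and its largest unadjusted p was 0.0309, within the first scan day. Its smallest adjusted p in any of them was 0.284. All these alternatives refit the same 6 arrays in which Vnn1 was picked out by its p, so they are not independent of it.

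Acot1, the cytosolic thioesterase of the cluster, had 2.33, 2.88 and 1.12 with corn oil and 2.20, 0.15 and 4.11 with TCEP. TCEP replicates 2 and 3 held the lowest and the highest value, 3.96 apart, and the difference of 0.04 ± 1.01 had the widest interval of the members. Angptl4, a secreted inhibitor of lipoprotein lipase, had 6.45, 6.94 and 5.51 and then 6.33, 6.22 and 6.81, a difference of 0.15 ± 0.38. Its TCEP values all lay inside the corn oil range. Plin2, a coat protein of lipid droplets, had signals from 6.62 to 7.01 with corn oil and from 6.66 to 6.98 with TCEP, a difference of 0.01 ± 0.14.

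Cd36, a fatty acid receptor and transporter of the cell membrane, had 3.98, 3.87 and 1.91 with corn oil and 2.78, 2.29 and 2.29 with TCEP. Corn oil replicates 1 and 2 lay above all TCEP animals, and corn oil replicate 3 below them. The TCEP mean was lower by 0.80 ± 0.56, or 1.74-fold, with an interval from -2.16 to 0.56, an unadjusted p of 0.202 and an adjusted p of 0.684 (limma). Without corn oil replicate 3 the difference was -1.47, with an unadjusted p of 0.000444 and an adjusted p of 0.247, and without corn oil replicate 1 or 2 it was -0.44 and -0.49. Its other probes gave -0.88 ± 0.51 and -0.72 ± 0.45. Adipocytes, macrophages and endothelium also express Cd36. Of 6 macrophage markers all were measured, with summed log2 signals from 5.51 to 6.69 in corn oil and from 5.98 to 6.20 in TCEP animals, and of 6 endothelial markers 4, from 5.34 to 5.63 and from 5.42 to 5.55. Of 6 adipocyte markers 3 were measured (Retn, Fabp4 and Cidec), from 2.53 to 2.77 and from 2.67 to 2.96, while Adipoq, Plin1 and Lep were not. That adipocyte sum lay close to the signal of Cidec alone, which is also in the wider list on lipid droplets, so it rests mainly on 1 gene. The part of any of these cells in the Cd36 values was not tested.

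Cidea, a protein that enlarges lipid droplets, had 4.05, 3.63 and 3.10 with corn oil and 3.70, 2.99 and 2.54 with TCEP, a difference of -0.52 ± 0.36. TCEP replicate 1 lay above corn oil replicates 2 and 3, so the groups overlapped. Slc22a5, the carnitine transporter of the cell membrane, had signals from -0.86 to 0.24 with corn oil and from -0.37 to 0.00 with TCEP. It differed by 0.13 ± 0.29 at its main probe and by 0.00 ± 0.13 at the other. Txnip, an inhibitor of thioredoxin that is also induced by glucose, had 1.88, 2.00 and 2.38 and then 1.94, 2.02 and 2.06, a difference of -0.08 ± 0.15. Ppara, the receptor gene itself, had 0.882, -0.880 and 1.105 with corn oil and 0.66, 1.38 and 0.35 with TCEP. Corn oil replicate 2 was low, and the difference of 0.43 ± 0.56 became -0.20 without it.

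**Figure D3:**
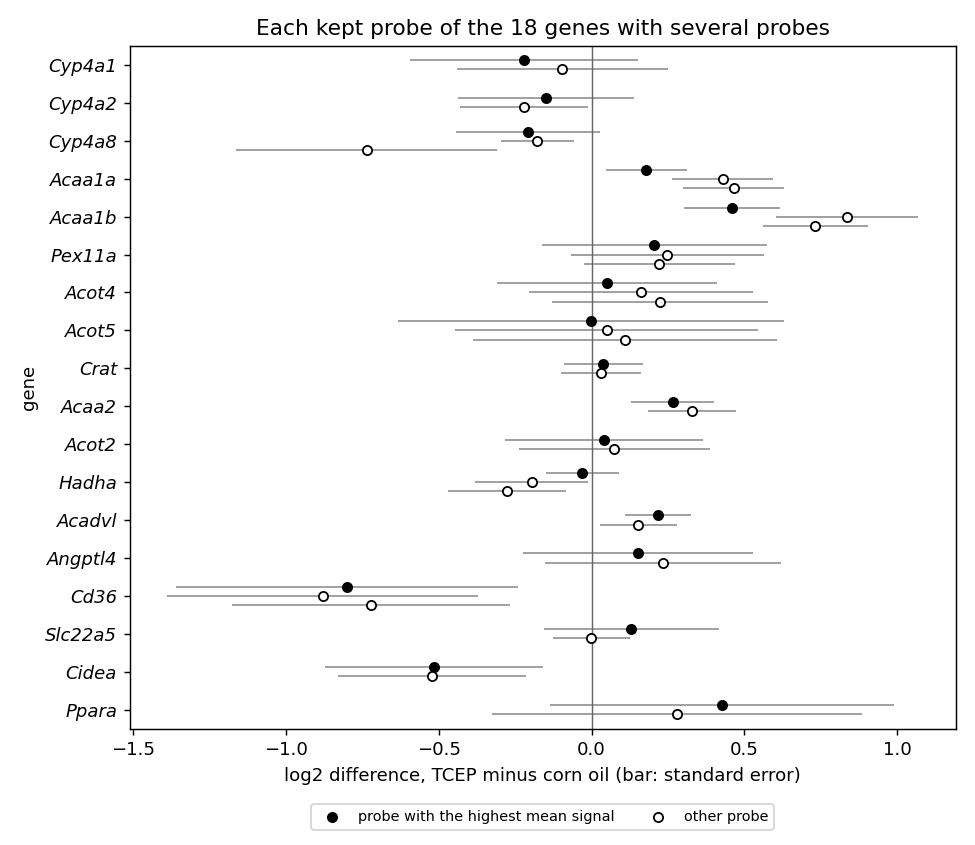
Difference in mean log2 signal between TCEP and corn oil (horizontal axis, TCEP minus corn oil) for every kept probe of the 18 genes with several kept probes, 1 row of points per gene and 1 standard error as a bar. Filled points are the probe with the highest mean signal, used in the text, and open points the others, which lie on the other side of 0 in Acot5 and Slc22a5.

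The animals differed in the same direction across many members, a pattern picked out after the values were seen. Corn oil replicate 3 was the lowest of the corn oil animals in 28 of the 37 members, against 38.2% of all genes, and TCEP replicate 3 was the highest of the TCEP animals in 28 members, against 39.3% of all genes. These counts were 31 and 26 with quantile normalization and 26 and 28 with median centring. In the wider pathway list read below they were 47 and 37 of 89 measured genes, the second near the share of all genes. Corn oil replicate 1, on the same slide and scan day as corn oil replicate 3, was higher than it in 31 of 37 members, with a median gap of 0.42 where that of all genes was 0.03. The gap between these arrays was over 0.5 in 17 members, and in 19.3% of all genes. Corn oil replicates 1 and 2, on different slides and scan days, differed by over 0.5 in 6 of 37 members, close to the 17.3% of all genes, and their median gap was -0.03. The part of slide and scan day in these gaps was not tested.

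The deviation from each gene's mean over the 6 arrays had a median of -0.30 over the members in corn oil replicate 3 and of 0.23 in TCEP replicate 3, against -0.01 and 0.02 over all genes. In corn oil replicate 3 the median was -0.54 in the Cyp4a, -0.52 in the peroxisomal and -0.18 in the mitochondrial members. In TCEP replicate 3 it was 0.31 in the peroxisomal and 0.25 in the mitochondrial members but -0.29 in the Cyp4a members. The members outside both organelles had medians of -0.26 and 0.16. Other animals had medians over all members between -0.04 and 0.11. By role, corn oil replicate 2 had a median of 0.55 in the Cyp4a members, as far from 0 as corn oil replicate 3. Its medians were 0.17 in the peroxisomal, -0.01 in the mitochondrial and 0.30 in the outside members.

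**Figure D4:**
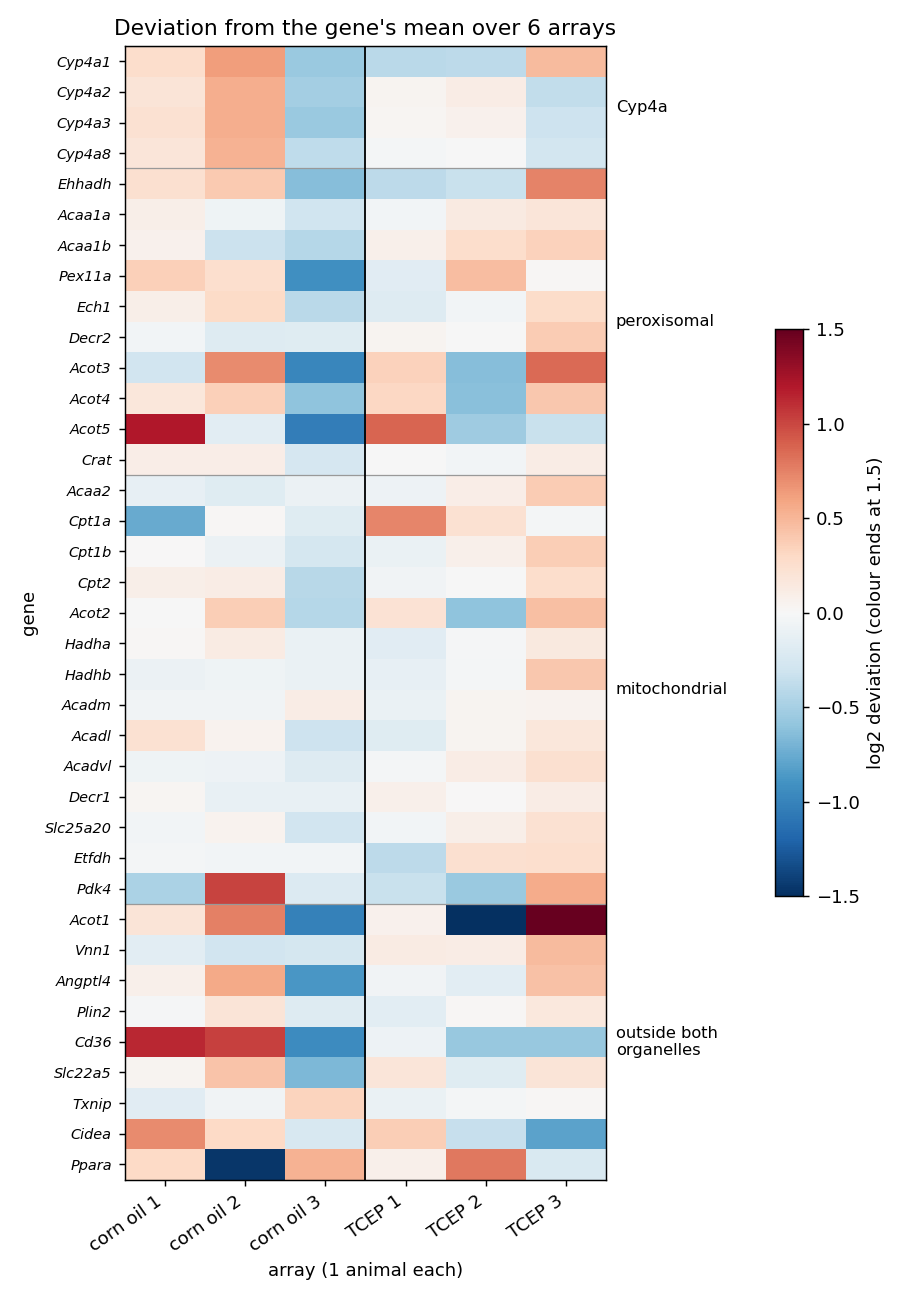
Deviation of each log2 signal from the gene's mean over the 6 arrays, as colour, for the 37 genes (vertical axis, grouped by role) on each array (horizontal axis). Corn oil 3 is mostly blue, with a median of -0.30, and TCEP 3 mostly red, with a median of 0.23, while Cyp4a2, Cyp4a3, Cyp4a8, Acot5, Cpt1a, Cd36, Cidea and Ppara lie below 0 there.

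Within the TCEP group the Cyp4a genes went apart. In TCEP replicate 3 Cyp4a1 lay 0.87 above the mean of TCEP replicates 1 and 2, as Ehhadh (1.12), Acot1 (2.93), Acot2 (0.64), Acot3 (0.99), Acot4 (0.56) and Angptl4 (0.54) did. Cyp4a2, Cyp4a3 and Cyp4a8 lay 0.45, 0.36 and 0.26 below the corresponding mean in the same animal. Acot5 also lay 0.51 below it and Pex11a 0.13 below it, so the split did not follow the gene families. Cpt1a (0.51), Cd36 (0.24), Cidea (0.81) and Ppara (0.66) lay below it too, while all other members lay above it, Pdk4 by 1.01. In Acot1, Acot2 and Acot4, TCEP replicate 2 was the lowest of the 6 arrays, which adds to their gap. In corn oil replicate 3 all 4 Cyp4a genes were low together, by 1.01, 0.88, 0.95 and 0.74 against the mean of corn oil replicates 1 and 2, and Ehhadh, Acot1 and Angptl4 were low by 0.95, 1.49 and 1.19. The difference between the 2 sets of genes in TCEP replicate 3 is that of 1 animal and has no test, and the sets were picked by these values.

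**Figure D5:**
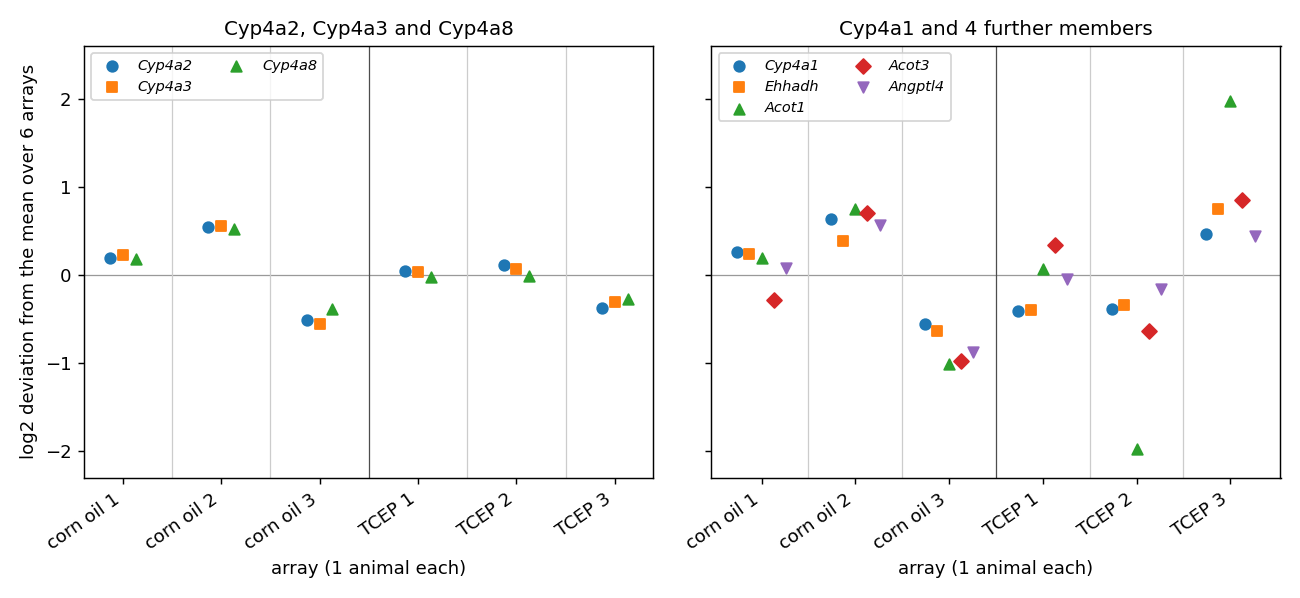
Log2 deviation from the gene's mean over the 6 arrays (vertical axis) on each array (horizontal axis, 1 animal each), for Cyp4a2, Cyp4a3 and Cyp4a8 on the left and Cyp4a1, Ehhadh, Acot1, Acot3 and Angptl4 on the right. Both sets are low in corn oil 3, while in TCEP 3 the left set lies below 0 and the right set above it. The genes shown were picked after the values were seen.

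The balance between the groups shifted when either animal was left out. Without corn oil replicate 3, 15 of the 37 members had a higher mean with TCEP and the median was -0.08. Peroxisomal members then had a median of -0.13 and mitochondrial members one of 0.08. Without TCEP replicate 3, 18 members had a higher mean and the median was -0.01. Without corn oil replicate 2, 30 had a higher mean and the median was 0.19. In 23 of the 37 members the sign of the difference changed when 1 array was left out. Such changes were not counted over all genes. The members that kept their sign were Vnn1, Acaa1b, Acaa1a, Cpt1a, Cpt1b, Acaa2, Acadvl, Hadhb, Decr1, Decr2, Slc25a20, Cyp4a8, Cd36 and Cidea.

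A wider list of 104 further genes of the pathway was read in the same fit, of which 89 were measured. Of these 63 had a higher mean with TCEP, 4 had an unadjusted p under 0.05 in the higher and 1 in the lower direction, none passed the adjusted threshold, and the median difference was 0.10. Over all genes 50.9% had a higher mean, and 5.01% and 4.19% reached that unadjusted p in the higher and the lower direction, so the counts of 4 and 1 among 89 lie below the shares of all genes. The mitochondrial oxidation and ketone formation list had a higher mean in 18 of 18 measured genes, 16 of 18 with quantile normalization and 15 of 18 without corn oil replicate 2, with a median of 0.13. Bdh1, the dehydrogenase that makes 3-hydroxybutyrate, had 5.15, 5.00 and 5.13 with corn oil and 5.39, 5.63 and 5.73 with TCEP, a difference of 0.49 ± 0.12 (unadjusted p = 0.00577, limma). Acad9, an acyl-CoA dehydrogenase that also serves complex I assembly, had 3.31, 3.06 and 3.10 and then 3.51, 3.65 and 3.67, a difference of 0.45 ± 0.11 (unadjusted p = 0.00537, limma). In both genes all TCEP animals lay above all corn oil animals. Cpt1c, a form of the transferase known from brain, differed by 0.45 ± 0.16 (unadjusted p = 0.0296). The adjusted p-values of these genes were 0.462, 0.449 and 0.523. Hadh, the short-chain hydroxyacyl-CoA dehydrogenase, differed by 0.17 ± 0.09.

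The other lists had fewer such genes. Of 32 measured genes of peroxisomal oxidation and biogenesis 23 had a higher mean, with a median of 0.11, and Pex6, an ATPase that recycles the import receptor, differed by 0.28 ± 0.11 (unadjusted p = 0.0402, limma). Scp2, a sterol carrier protein with a peroxisomal thiolase form, and Pxmp2, a channel of the peroxisomal membrane, differed by -0.04 ± 0.12 and 0.03 ± 0.09. Of 23 measured genes of uptake, activation and lipid droplets 16 had a higher mean, and Fabp3, a fatty acid binding protein of heart and muscle, was lower by 0.47 ± 0.17 (unadjusted p = 0.032, limma). Fabp1, the liver's fatty acid binding protein, differed by -0.07 ± 0.13 and Acsl1, the main acyl-CoA synthetase, by 0.01 ± 0.17. Of 17 measured regulators and hormones 7 had a higher mean and none had an unadjusted p under 0.05, with Creb3l3 at 0.03 ± 0.09 and Klf15 at -0.29 ± 0.33.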

How the data were processed

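The deposited scanner files, written by Agilent Feature Extraction (10.7.1.1 per the file headers, 10.7 per the submitters' processing notes), hold for each spot a processed intensity, already background-corrected per the file headers, and flags for spots well above background, outlying or saturated. The authors' deposited value table was a linear ratio: its column medians were 0.101, 0.103, 0.0961, 0.0955, 0.0971 and 0.0953, and it followed each array's processed intensity to within 0.00269 in log2 for signals over 100. Its scaling and direction were read from the values. The build used for probe design is not the assembly of the RefSeq tables, so no probe coordinates are given; promoter windows and chromosomes are those of GRCr8.

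From the 61657 non-control probes, log2 processed intensity minus the array's 75th percentile was taken. Control spots (1319) and 64 outlier-flagged spots were left out and 5 saturated spots kept. A probe was kept (37043 were) if 1 group or both had it well above background on every array. RefSeq accessions matched 27460 probes to symbols of GRCr8, 34197 kept the file's name, and the probe with the highest mean stood for each gene. TCEP and corn oil (3 animals each) were compared with limma 3.58.1 in R 4.3.3 over 27642 genes, two-sided, with Benjamini-Hochberg adjustment. Other probes were tested in a fit over all probes. The number of arrays limits the precision. Each array is 1 animal per the labels. The script was tested on simulated data. Every member is named; of the wider pathway list, genes with an unadjusted p under 0.05 and the 2 with the highest mean signal of each list, a rule for naming that ranks no expression level, are named, except 1 gene that is not reported here, and no other gene is given with values. Members and lists were chosen with earlier results of these data known. Alternatives covered scaling, background correction, filters, probe choice, variance model, slide, scan day, replicate number and each array left out. Samples with the same replicate number did not deviate together (correlations -0.05, -0.16 and -0.02), so the numbers were not taken as pairs.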

Additional observations from a re-analysis of the deposited data

How the results depend on the processing

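No gene passed the adjusted threshold in any of the 18 alternatives run on all genes. Besides the sign changes of medians given with the results, the median of the members outside both organelles was -0.17 without corn oil replicate 3 and -0.063 without TCEP replicate 3. The count of members with an unadjusted p under 0.05 and a higher TCEP mean was 4 with median centring and 5 with normexp background correction. Of all genes 7.81% and 6.69% did so in these settings. The count of such members was 1 to 4 when arrays were left out in turn, against 2.84% to 5.86% of all genes. In the lower direction leaving out arrays gave 0 to 3 members, against 821 to 1593 of all 27642 genes. With the replicate block, 1 member was higher (Vnn1) and 1 lower (Cidea), and 1901 genes in all had an unadjusted p under 0.05 where 2543 did without it. Among all genes at an unadjusted p under 0.05, the share with a higher TCEP mean was 54.4%, and it was 76.2% with median centring, 62.9% with normexp, 62.2% with the trended robust variance model and 37.9% with no filter on dim probes. Median centring moved the median of all genes to 0.06.

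Some log2 differences changed sign. With quantile normalization they were -0.086 for Ehhadh, -0.048 for Acot2, -0.044 for Acot4, -0.092 for Plin2, -0.097 for Acadm, -0.038 for Acadl, -0.071 for Ech1, -0.064 for Crat, -0.018 for Etfdh, -0.044 for Pxmp2 and -0.035 for Creb3l3. With median centring they were 0.058 for Acot5, 0.028 for Hadha and 0.024 for Scp2, and with normexp -0.029 for Plin2, 0.066 for Hadha, -0.018 for Acadm, -0.031 for Acadl, -0.039 for Ech1 and 0.030 for Fabp1. The mean over a gene's probes gave 0.053 for Acot5 and -0.037 for Creb3l3, and single further probes gave 0.050 and 0.11 for Acot5 and -0.00054 for Slc22a5. Scan day as a block, which here equals leaving out corn oil replicate 2, gave 0.041 for Cyp4a1, 0.085 for Cyp4a2, 0.095 for Cyp4a3, 0.23 for Pdk4, 0.025 for Hadha, -0.024 for Acadm and -0.20 for Ppara. The cause of these changes was not tested.

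When arrays were left out in turn, the differences that changed sign ranged as follows. The Cyp4a members ran from -0.55 to 0.041 (Cyp4a1), -0.44 to 0.085 (Cyp4a2) and -0.46 to 0.095 (Cyp4a3). The thioesterases ran from -0.93 to 1.04 (Acot1), -0.17 to 0.35 (Acot2), -0.028 to 0.81 (Acot3), -0.24 to 0.38 (Acot4) and -0.52 to 0.60 (Acot5). Peroxisomal genes ran from -0.36 to 0.21 (Ehhadh), -0.20 to 0.43 (Pex11a), -0.17 to 0.17 (Ech1), -0.079 to 0.10 (Crat), -0.10 to 0.048 (Scp2) and -0.0051 to 0.073 (Pxmp2). Mitochondrial genes ran from -0.023 to 0.24 (Cpt2), -0.11 to 0.047 (Hadha), -0.025 to 0.059 (Acadm), -0.13 to 0.15 (Acadl), -0.039 to 0.28 (Etfdh) and -0.56 to 0.23 (Pdk4). The remaining ones ran from -0.25 to 0.47 (Angptl4), -0.080 to 0.11 (Plin2), -0.17 to 0.38 (Slc22a5), -0.18 to 0.073 (Txnip), -0.20 to 0.79 (Ppara) and -0.13 to 0.13 (Acsl1).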
